A study of Rattus norvegicus with 6 samples.

Results

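Myod1, Des, Acta1, Myl6b, Car3 and Meox2 are genes of the myogenic programme or genes that are abundant in muscle tissue. They were followed here in rat fibroblasts treated with 5-aza-2'-deoxycytidine, a cytidine analogue that blocks DNA methyltransferases. Each of the 6 genes was measured by 1 probe set that maps to that gene alone, out of 2890 genes measured in this way. FE8 is a fibroblast line transformed by the HRAS oncogene, and 208F is the immortal line it is set against. The groups were FE8 cells given the drug at 0.3 µM for 96 h (n = 2 arrays), untreated FE8 cells (n = 1), 208F cells with that dose and duration (n = 2) and untreated 208F cells (n = 1). The labels name no vehicle for the untreated cells, and each cell type is represented by 1 line. The label "myogenic" describes what the genes are known for. In these arrays the 6 genes did not move together: with the drug Myod1 was higher and Meox2 lower in both lines, Des was higher and Myl6b lower in 208F, Car3 was called only between the lines, and Acta1 only between the lines under the drug.

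Myod1 encodes a basic helix-loop-helix transcription factor that commits cells to skeletal muscle. It binds the E-box motif CANNTG together with E proteins such as Tcf3 and Tcf12, and Id proteins bind those partners and keep Myod1 inactive. In mouse embryo fibroblasts, azacytidine is known to switch on Myod1 and to yield muscle, fat and cartilage cells. Desmin (Des) is the intermediate filament protein of muscle, Acta1 encodes skeletal muscle alpha-actin, and Myl6b encodes an essential myosin light chain of slow muscle and non-muscle cells. Car3 encodes a cytosolic carbonic anhydrase abundant in slow muscle and fat, and Meox2 is a homeobox gene of the somites and of limb muscle precursors.

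The drug blocks DNA methyltransferases, and methylated cytosines in mammals lie mostly in CpG dinucleotides. The promoter windows of the members are therefore shown with every CpG in capitals. Windows of 300 bases, from 250 before to 50 after the annotated gene start, were matched in RefSeq (build GRCr8) for 3 of the 6 members. The 3 are Des, which was higher with the drug, Acta1, the other muscle filament gene, and Meox2, which was lower. Des lies on the plus strand (chr9:84299376-84299675), Acta1 on the minus strand (chr19:68784145-68784444) and Meox2 on the plus strand (chr6:59583775-59584074). All are written 5′ to 3′ along the gene.
Des: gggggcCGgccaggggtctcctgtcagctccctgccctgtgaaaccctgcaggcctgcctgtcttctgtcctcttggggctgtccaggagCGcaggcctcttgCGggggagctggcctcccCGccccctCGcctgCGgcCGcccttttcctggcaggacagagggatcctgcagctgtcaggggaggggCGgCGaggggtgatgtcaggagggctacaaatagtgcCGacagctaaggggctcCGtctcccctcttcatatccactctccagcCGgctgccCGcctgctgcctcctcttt
Acta1: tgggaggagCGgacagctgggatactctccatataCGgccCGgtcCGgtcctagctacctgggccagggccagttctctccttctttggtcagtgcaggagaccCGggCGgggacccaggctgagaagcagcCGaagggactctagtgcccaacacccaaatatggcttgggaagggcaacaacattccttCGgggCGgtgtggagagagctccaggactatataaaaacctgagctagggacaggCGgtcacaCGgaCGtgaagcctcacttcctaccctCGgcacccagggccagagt
Meox2: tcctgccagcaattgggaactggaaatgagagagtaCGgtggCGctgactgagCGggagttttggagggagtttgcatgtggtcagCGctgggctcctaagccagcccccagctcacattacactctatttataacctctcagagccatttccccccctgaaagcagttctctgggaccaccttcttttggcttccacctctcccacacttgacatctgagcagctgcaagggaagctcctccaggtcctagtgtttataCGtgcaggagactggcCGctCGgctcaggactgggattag

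The Des and Acta1 windows held 13 CpGs each and the Meox2 window held 7. Over 33469 rat promoter windows of the same length the median was 7 CpGs, and 35.3% held at least 13. The E-box letters CANNTG, which read the same on both strands, occurred once in Des, 79 bases upstream of the gene start, once in Acta1 and 5 times in Meox2. Of all windows, 72.1% held at least 1 such match and 1.77% held at least 5. Acta1 alone of the 3 held a CArG box, the motif of serum response factor, 94 bases upstream of the start, against 1.64% of all windows. Acta1 also held the letters TATAAA 29 bases upstream, and Meox2 held them at 2 positions on the opposite strand, against 14.2% of all windows with at least 1 match on either strand. These are matches of letters, and methylation of these windows was not analysed here. The map of the windows shows where the CpGs lie. In Meox2 none lay between 164 bases upstream of the gene start and base 11 of the gene.

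**Figure D1:**
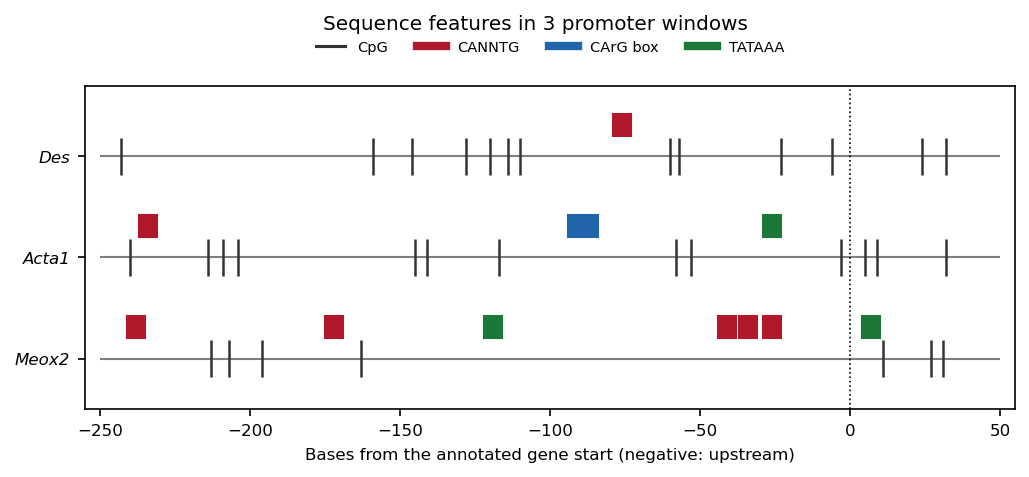
Map of the promoter windows of Des, Acta1 and Meox2, with distance from the annotated gene start in bases on the x axis. Thin vertical lines are CpGs (13, 13 and 7) and coloured boxes are letter matches to CANNTG, the CArG box and TATAAA, the last on either strand; the CArG box lies in Acta1 only.

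Signals are MAS5 intensities on a linear scale, and levels of different probe sets are not comparable with each other. The median signal of the 4818 tested probe sets lay between 354 and 422 over the 6 arrays, and the 10th percentile between 48.0 and 86.0. The files used here gave no detection calls, so a signal below the 10th percentile of its array is called dim. The untreated arrays were run on another day and on chips of another lot than the treated ones. The drug therefore cannot be told apart from run day and chip lot. Among the treated arrays, 208F replicate 1 was run on its own day and lot. The ratio of the 5' to the 3' probe set of beta-actin, which falls with RNA degradation, was 0.405 and 0.384 in treated FE8, 0.351 in untreated FE8, 0.529 and 0.456 in treated 208F and 0.824 in untreated 208F. The same ratio for GAPDH was 1.126 and 1.073 in treated FE8, 0.691 in untreated FE8, 1.132 and 1.010 in treated 208F and 0.916 in untreated 208F, so in 208F the beta-actin ratio was lower and the GAPDH ratio higher on the treated arrays. The part of RNA quality in the differences below was not tested. The labels do not say whether duplicates came from separate cultures. The p-values rest on the spread between treated duplicates, which may be technical, and on a spread pooled over probe sets. Each untreated group was 1 array, so its own spread was not measured. The line difference without the drug sets 1 array against 1. In cultures measured in bulk, fewer cells that express a gene and less RNA per cell cannot be told apart.

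Of 11 measured fibroblast markers, none was dim on 5 arrays and 1 was dim on FE8 treated replicate 1. Their summed signal was 47386 and 51431 in treated FE8, 51024 in untreated FE8, 92930 and 68689 in treated 208F and 108708 in untreated 208F. Col1a1, the main chain of type I collagen, stood at 271, 100 and 131 in FE8, treated replicates first, and at 10923, 6922 and 22282 in 208F, again treated replicates first. Thy1 stood between 2565 and 4342 on the 6 arrays and S100a4 between 14411 and 23151. With the drug, Col1a2, Col5a1 and Col5a2 fell in FE8 (-1.93 ± 0.31, -1.27 ± 0.33 and -2.21 ± 0.30), and Col3a1 and Col5a1 fell in 208F (-2.17 ± 0.41 and -2.51 ± 0.33). The brightest Sparc probe set rose in FE8 by 1.33 ± 0.34 while its other 3 fell, so Sparc is uncertain. That probe set counts in the summed signal, at 14909 and 20565 in treated FE8 and 6913 in untreated FE8. The like sums in FE8 therefore do not show that the markers were unchanged there. Without the drug 6 of the 11 were lower in FE8 than in 208F, led by Col1a1, Col3a1, Fn1 and Col5a2 at -6.84, -3.49, -2.85 and -2.23, and with it 5 were lower, led by Col1a1, Col5a2, Col1a2 and Col3a1 at -5.22, -3.41, -2.80 and -2.66. None was higher. The second probe set of Col3a1 did not pass under the drug (-0.93). Of the 5 probe sets of Fn1, 1 did not pass without the drug (-1.36). The rest passed, at -2.85, -3.49, -3.24 and -3.74.

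Differences are given on the scale log2(signal + 64), 64 being the 10th percentile over all tested signals, with standard errors from a limma fit to all 6 arrays and p-values adjusted by the Benjamini-Hochberg method over 4818 probe sets. On this scale the change of a dim gene is understated. A difference was called at an adjusted p under 0.05. The median over all probe sets was 0.11 for the drug effect in 208F and 0.08 in FE8.

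Myod1 (probe set M84176_at) was higher with the drug in both lines and lower in FE8 than in 208F at each treatment. Its signal was 206 and 188 in treated FE8 and 12 in untreated FE8. In 208F it was 1302 and 1147 with the drug and 260 without. The treated arrays of each line lay above that line's untreated array, which in FE8 was dim, and both treated FE8 arrays lay below untreated 208F.

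The drug effect on Myod1 was 1.78 ± 0.35 in FE8 (a 3.43-fold rise, adjusted p = 0.0094) and 1.99 ± 0.35 in 208F (3.97-fold, adjusted p = 0.0071). The difference between these effects was -0.21 ± 0.49, with a 95% interval of -1.29 to 0.87 (adjusted p = 1). The interval is wide, so the effects were not shown to be alike. With a pseudocount of 16 the same difference was 0.76. FE8 was lower than 208F, at -2.09 ± 0.40 without the drug (adjusted p = 0.0093) and -2.30 ± 0.28 with it (adjusted p = 0.00039). Within the lot shared by 3 treated arrays, which leaves out 208F treated replicate 1, the line difference under the drug was -2.21. The calls in FE8 were lost without either FE8 treated replicate (adjusted p = 0.109 without replicate 1 and 0.0901 without replicate 2), as was the untreated line difference (0.0524 and 0.0515). Both were also lost with a pseudocount 4 times as large as 64, at 0.76 for the drug in FE8 (adjusted p = 0.0842) and -0.95 for the lines (0.0816). In 208F the call was lost by a narrow margin without FE8 treated replicate 1 (adjusted p = 0.05004).

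Des (X73524_at) showed the largest drug effect of the 6 genes in 208F. Its signal was 141 and 383 in treated FE8 and 14 in untreated FE8, and 553 and 1241 in treated 208F and 25 in untreated 208F. Both untreated arrays were dim and all 4 treated arrays were not. Replicate 2 was more than 2 times as bright as replicate 1 in each line, so Des had the widest error of the members.

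Des rose by 3.33 ± 0.54 in 208F (10.1-fold, adjusted p = 0.0051), a call kept when any 1 treated array was left out. With the untreated signal dim, the size depends on the pseudocount, at 4.37 with a pseudocount of 16 and 1.97 with the larger one. In FE8 the effect was 1.96 ± 0.54 and missed the threshold (adjusted p = 0.051). It passed without 208F treated replicate 1 (adjusted p = 0.00019) or replicate 2 (0.000287), and with a pseudocount of 16 (3.06, adjusted p = 0.0176), and was 0.90 with the larger pseudocount. Without either 208F replicate, here and for every gene below, limma's error is wholly the value pooled over probe sets of like signal, and a gene's own spread between duplicates has no weight. The difference between the effects, FE8 minus 208F, was -1.38 ± 0.77 with an interval of -3.07 to 0.32 (adjusted p = 0.82). FE8 and 208F differed by -0.19 ± 0.63 without the drug (adjusted p = 0.97), where both signals were dim, and by -1.57 ± 0.44 with it (adjusted p = 0.061). Treated arrays of the lines did not overlap, with the brighter FE8 array at 383 and the dimmer 208F array at 553. Without 208F treated replicate 1, that is within 1 lot, the treated line difference was -2.11 and passed (adjusted p = 7.36e-05), with that pooled error, which gives no weight to the gap between the FE8 signals of 141 and 383.

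Acta1 (J00692_at) stayed at low signals. It was at 65 and 27 in treated FE8 and 9 in untreated FE8, all dim, and at 192 and 199 in treated 208F and 101 in untreated 208F. In each line the treated arrays lay above the untreated one, and every FE8 array lay below every 208F array.

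The drug effect on Acta1 did not pass in FE8 (0.57 ± 0.40, adjusted p = 0.48) or in 208F (0.65 ± 0.40, adjusted p = 0.46). Acta1 was lower in FE8 than in 208F under the drug, at -1.26 ± 0.33 (adjusted p = 0.043), and the untreated difference was -1.18 ± 0.47 (adjusted p = 0.23). The call under the drug was lost without any 1 of the treated arrays, with adjusted p = 0.0669 and 0.0653 without 208F replicates 1 and 2, and 0.0918 and 0.32 without FE8 replicates 1 and 2. It was also lost with a pseudocount of 16 (adjusted p = 0.0649). Actin genes are close in sequence, and whether this probe set also binds other actin transcripts was not tested. Actb, the cytoskeletal actin, stood between 14641 and 23632 on all arrays, with drug effects of 0.23 ± 0.31 in FE8 and 0.10 ± 0.31 in 208F.

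Myl6b (rc_AA875523_r_at) was bright in all groups and lower with the drug. Its signal was 1929 and 1148 in treated FE8 and 3112 in untreated FE8, and 2068 and 1275 in treated 208F and 6934 in untreated 208F. All treated arrays lay below both untreated arrays, and the treated arrays of the lines overlapped.

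The drug effect on Myl6b was -1.03 ± 0.36 in FE8 (adjusted p = 0.12) and -2.05 ± 0.36 in 208F (4.14-fold lower, adjusted p = 0.0076). The 208F call was lost without FE8 treated replicate 1 (adjusted p = 0.0612) or 2 (0.0592). The FE8 effect passed without 208F treated replicate 1 (0.000348) or 2 (0.000237), and so did the untreated line difference of -1.14 ± 0.42 (0.000892 and 0.000632, against 0.18 with all arrays). Under the drug the lines differed by -0.12 ± 0.30 (adjusted p = 0.95). The difference between the drug effects, 1.02 ± 0.51, did not pass (adjusted p = 0.74) except without 208F treated replicate 1 (1.35, adjusted p = 0.011).

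The identity of this transcript is less certain than that of the other members. The suffix _r marks a probe set designed with relaxed rules, the gene identifier was the 1 of 6 that had no match in the GRCr8 gene table, and that table gives the symbol to a pseudogene. Another 3 probe sets are listed for Myl6b together with Myl6, its ubiquitous relative, and so did not count as members. They were at -1.07 ± 0.28, -0.80 ± 0.39 and -0.92 ± 0.29 for the drug effect in FE8, of which the first passed (rc_AA875523_i_at, adjusted p = 0.042). In 208F they were at -1.28 ± 0.28, -0.83 ± 0.39 and -1.37 ± 0.29, of which the first and the last passed (adjusted p = 0.025 and 0.019). The 1 probe set of Myl6 alone, with signals between 207 and 567, did not pass in either line. It was at -0.62 ± 0.43 in FE8 (adjusted p = 0.48) and -0.38 ± 0.43 in 208F (adjusted p = 0.73). Which of these transcripts the Myl6b probe set binds was not tested.

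Car3 (AF037072_at) separated the lines and had the largest line difference of the 6 genes. Its signal was 217 and 143 in treated FE8 and 148 in untreated FE8, against 4394 and 2704 in treated 208F and 7369 in untreated 208F. The ranges of the lines were far apart, and the untreated FE8 array lay between the treated ones.

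FE8 was lower in Car3, at -5.13 ± 0.40 without the drug (35.1-fold, adjusted p = 2.1e-05) and -3.86 ± 0.28 with it (14.6-fold, adjusted p = 1e-05), calls kept when any 1 treated array was left out. Within the shared lot the treated difference was -3.52. The drug effect was 0.19 ± 0.35 in FE8 (adjusted p = 0.82) and -1.08 ± 0.35 in 208F (adjusted p = 0.12). The 208F effect passed without 208F treated replicate 1 (-1.43, adjusted p = 0.00214). The difference between the effects was 1.27 ± 0.49, with an unadjusted interval of 0.18 to 2.35 and adjusted p = 0.51, and it passed without 208F treated replicate 1 (1.61, adjusted p = 0.0293). Among other carbonic anhydrases, Car2 and Car5b were measured, and neither passed in any comparison.

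Meox2 (Z17223_at) was lower with the drug in both lines and lower in FE8 at each treatment. Its signal was 48 and 27 in treated FE8, both dim, and 201 in untreated FE8. In 208F it was 543 and 424 with the drug and 2201 without. No group overlapped another.

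The drug effect on Meox2 was -1.39 ± 0.37 in FE8 (2.62-fold lower, adjusted p = 0.04) and -2.06 ± 0.37 in 208F (4.16-fold lower, adjusted p = 0.0077). The difference between the effects was 0.66 ± 0.52, with an interval of -0.47 to 1.80 (adjusted p = 0.99), and in FE8 the size is held down by the pseudocount. FE8 was lower, at -3.10 ± 0.42 without the drug (adjusted p = 0.0012) and -2.43 ± 0.30 with it (adjusted p = 0.00039, and -2.27 within the shared lot). The FE8 drug call was lost without FE8 treated replicate 1 (adjusted p = 0.154) or 2 (0.204), and with a pseudocount 4 times as large as 64 (-0.64, adjusted p = 0.154). The plot of signals shows the opposite courses of Myod1 and Meox2 within each line.

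**Figure D2:**
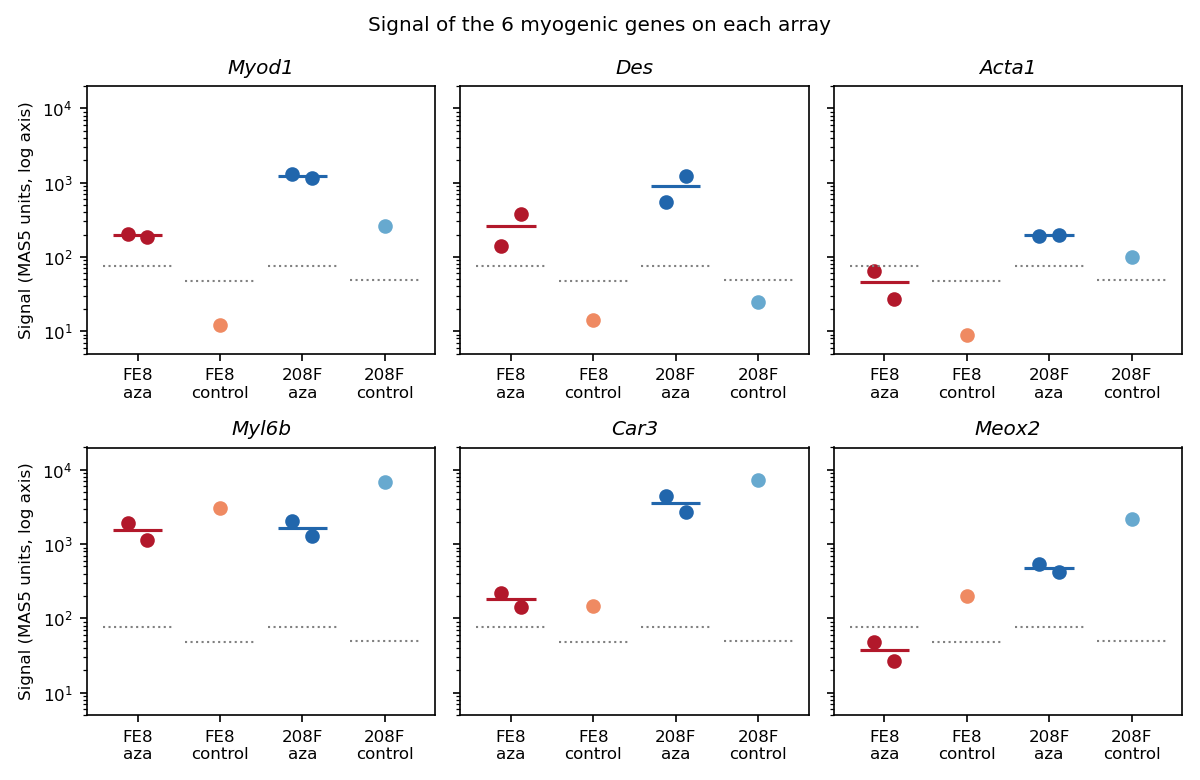
Signal of each gene (MAS5 units, log axis) in treated FE8, untreated FE8, treated 208F and untreated 208F, with a point for each array, a solid line at the mean of duplicates and a dotted line at the 10th percentile of all tested probe sets on those arrays (mean of duplicates). Myod1 and Des lie above their untreated array in both lines, Meox2 lies below it, and Car3 separates the lines.

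Counted by comparison, 2 of the 6 genes were called for the drug effect in FE8, Myod1 higher and Meox2 lower, where 8.16% of all probe sets were called, 5.06% higher and 3.09% lower. In 208F, 4 of 6 were called, Myod1 and Des higher and Myl6b and Meox2 lower, where 5.19% of all were called, 3.59% higher and 1.6% lower. Without the drug, 3 of 6 (Myod1, Car3 and Meox2) were lower in FE8 and none was higher, where 5.92% of all were called, 2.82% lower and 3.09% higher. Under the drug, 4 of 6 (Myod1, Acta1, Car3 and Meox2) were lower in FE8 and none was higher, where 7.08% of all were called, 3.65% lower and 3.42% higher. The line comparisons share no array with each other, but each drug effect shares its arrays with them. The median over the 6 genes was -1.63 without the drug and -1.93 with it, against 0.02 and 0.00 over all probe sets. For the difference between drug effects limma called none of the 6, with 1 at an unadjusted p under 0.05 (Car3), where 0.0623% of all were called, 0.0208% higher and 0.0415% lower. The members were chosen with results of these data known, so these counts are descriptions.

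**Figure D3:**
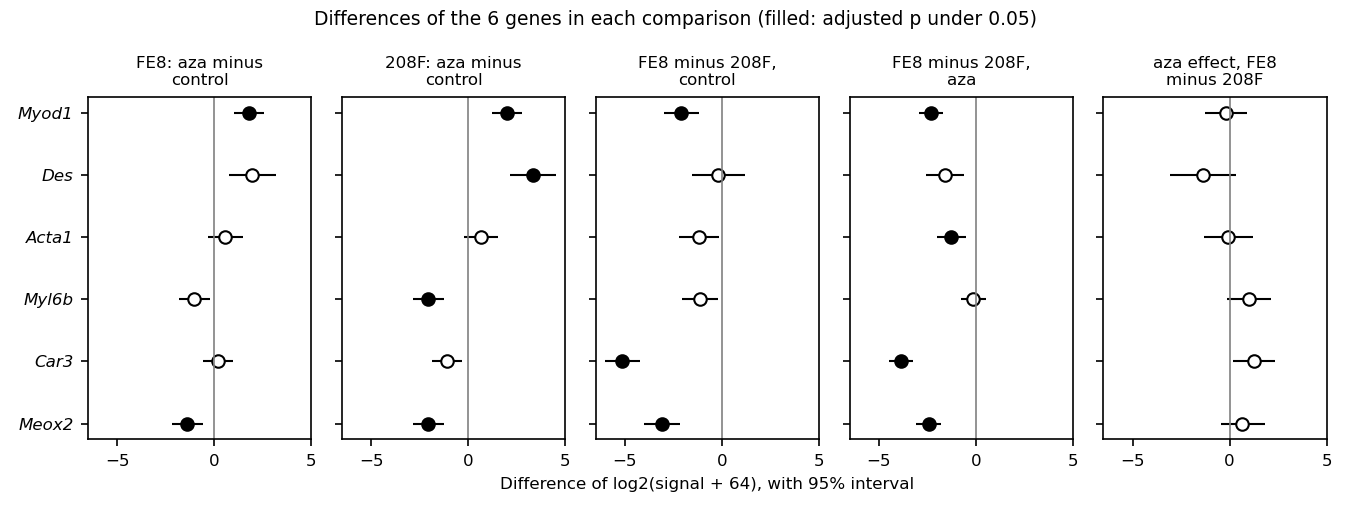
Differences of log2(signal + 64) with 95% intervals for the 6 genes in 5 comparisons, filled where the adjusted p was under 0.05. The line comparisons hold filled points on the lower side only, and the panel for the difference between drug effects holds none.

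Genes that act with or against Myod1 were listed as myogenic regulators, and 11 of 35 were measured. 4 of them rose in both lines, none fell and 7 did not pass, with medians of 0.61 in FE8 and 0.36 in 208F. Id1, Id2 and Id3, the inhibitors of helix-loop-helix factors, were 3 of the 4. Id1 stood at 5299 and 3881 in treated FE8 and 679 in untreated FE8, and at 6170 and 5171 in treated 208F and 1513 in untreated 208F. It rose by 2.63 ± 0.29 in FE8 and 1.86 ± 0.29 in 208F, while its dimmer probe set did not pass (0.53 and 0.31). Id2 rose by 2.08 ± 0.35 in FE8 and 2.99 ± 0.35 in 208F.

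Id3 rose by 1.41 ± 0.26 in FE8 and 1.68 ± 0.26 in 208F, with both of its probe sets called in both lines. The fourth was Cdkn1a, a cyclin-dependent kinase inhibitor that is raised when muscle precursors leave the cell cycle and is also a p53 target, at 4.65 ± 0.39 in FE8 and 3.91 ± 0.39 in 208F. Among the E proteins, Tcf3 was at -0.01 ± 0.32 in FE8 and -0.22 ± 0.32 in 208F, and Tcf12 at 0.61 ± 0.40 and 0.24 ± 0.40 in the same order of lines. Limma called none of the 11 between the lines, with 1 at an unadjusted p under 0.05 without the drug and 3 with it. The brightest, Id3 and Id1, were at -0.20 ± 0.30 and -1.09 ± 0.33 without the drug and at -0.48 ± 0.21 and -0.31 ± 0.24 with it. Myog, Myf5, Myf6 and the Mef2 genes were not analysed here.

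Structural and contractile genes of skeletal muscle showed no rise that passed. Of 16 measured, none was called for the drug effect in FE8 (limma, 1 at an unadjusted p under 0.05). In 208F none was higher and 1 was lower, the tropomyosin Tpm2 at -1.35 ± 0.33 (limma, 4 at an unadjusted p under 0.05, either direction). Of all probe sets 5.06% were called higher in FE8 and 3.59% in 208F. A count of none among 16 therefore does not set this list apart from other genes. Medians were 0.20 in FE8 and 0.45 in 208F, against 0.08 and 0.11 over all probe sets. The brightest, Tpm3 and the calcium pump Atp2a2, were at 0.01 ± 0.31 and 0.34 ± 0.26 in FE8. Myh3, the embryonic myosin heavy chain, stood at 1135 and 897 in treated FE8 and 573 in untreated FE8, and at 1350 and 876 in treated 208F and 560 in untreated 208F. Its effects of 0.75 ± 0.33 and 0.89 ± 0.33 did not pass (adjusted p = 0.22 in FE8 and 0.17 in 208F). Troponin C (Tnnc2) was at 0.22 ± 0.40 in FE8 and 1.00 ± 0.40 in 208F (adjusted p = 0.81 and 0.2), with every signal at or below 107. Nebulin (Neb) was dim on all 6 arrays, with its highest signal at 43. Tpm1 was lower in FE8, at -2.88 ± 0.33 without the drug and -1.91 ± 0.23 with it, where 1 more of its 5 probe sets passed each time.

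Of 9 genes of muscle metabolism and the nerve-muscle synapse, 1 was called for the drug in 208F and none in FE8. At an unadjusted p under 0.05 limma gave 2 in 208F and none in FE8. The 1 called was Fabp3, the fatty acid binding protein of heart and muscle. Its signal was 60 and 31 in treated FE8 and 27 in untreated FE8, and 479 and 482 in treated 208F and 57 in untreated 208F. It rose by 2.17 ± 0.39 in 208F (adjusted p = 0.0086) and was at 0.25 ± 0.39 in FE8 (adjusted p = 0.78). Under the drug it was lower in FE8, at -2.33 ± 0.32 (adjusted p = 0.00086), while the difference between the drug effects, -1.92 ± 0.55, did not pass (adjusted p = 0.24). The brightest genes of this list, the glycolytic Aldoa and Pfkm, were at 0.00 ± 0.32 and -0.67 ± 0.34 in FE8.

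Of 7 cardiac genes, 1 rose in each line. In FE8 it was Nppb, the natriuretic peptide B, at 690 and 565 in treated FE8 and 11 in untreated FE8 (3.20 ± 0.38, adjusted p = 0.00051), and at 127 and 161 in treated 208F and 61 in untreated 208F. In 208F it was Tnni3, cardiac troponin I, by 1.58 ± 0.39 (adjusted p = 0.04), with signals of 163 and 181 in treated cells against 15 in untreated cells. In FE8 Tnni3 was at 1.00 ± 0.39 (adjusted p = 0.16), with 119 and 151 in treated cells against 35 in untreated cells. The difference between its drug effects, -0.58 ± 0.55, did not pass. Under the drug Nppb was higher in FE8 by 1.73 ± 0.31, and its drug effects differed by 2.47 ± 0.54 without passing (adjusted p = 0.11).

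Among smooth muscle genes, of 6 measured, 3 fell with the drug in 208F and none rose, namely Myl9 at -2.83 ± 0.36, Acta2 at -2.48 ± 0.36 and Tagln at -1.58 ± 0.33. In FE8 none fell and 1 rose, the actin-binding protein Cald1 by 1.90 ± 0.34. In untreated FE8 the 3 genes that fell in 208F already stood low, with Tagln at 24, Myl9 at 43 and Acta2 at 108. Of the 6 genes, 3 were dim on that array, namely Tagln, Myl9 and Cald1. A further fall of Tagln and Myl9 there would be hard to see. Acta2 was not dim there, and its drug effect in FE8 was -0.44 ± 0.36 without passing. Limma called none of the 6 for the difference between drug effects, with 5 at an unadjusted p under 0.05. The largest was Myl9 at 2.69 ± 0.51 (adjusted p = 0.055). The summed signal of the 6 was 4321 and 4202 in treated FE8, 5345 in untreated FE8, 9271 and 9917 in treated 208F and 22366 in untreated 208F. Without the drug 4 of 6 were lower in FE8, Tagln at -6.18 ± 0.38, Myl9 at -5.39 ± 0.41, Acta2 at -5.37 ± 0.41 and Cald1 at -3.85 ± 0.39, and 1 was higher, Cnn3 by 1.27 ± 0.30, whose second probe set did not pass (1.03 ± 0.50). With the drug these 4 and Csrp1 were lower, at -1.17 ± 0.23 to -4.38 ± 0.27. Of 7 ubiquitous actin and myosin genes, limma called none for the drug in either line, with none at an unadjusted p under 0.05, and Myo1c was lower in FE8 under the drug, at -1.04 ± 0.26. The brightest, Actg1, was at -0.30 ± 0.39 in FE8 and -0.41 ± 0.39 in 208F.

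Of 8 other intermediate filament genes, 3 rose in FE8 and 2 in 208F. The simple epithelial keratin Krt8 rose by 4.37 ± 0.27 in FE8 and 3.79 ± 0.27 in 208F, and its partner Krt18 by 1.68 ± 0.40 and 1.61 ± 0.40. Peripherin (Prph), a filament of peripheral neurons, rose by 1.78 ± 0.38 in FE8 and was at 1.43 ± 0.38 in 208F (adjusted p = 0.057). The second Krt18 probe set did not pass in either line (1.23 and 0.84). The nuclear lamin Lmna fell in 208F (-1.54 ± 0.27), and vimentin (Vim), the filament of fibroblasts, was at -1.02 ± 0.29 in FE8 and -0.58 ± 0.29 in 208F without passing. Nestin (Nes), a filament of precursor cells, was lower in FE8, at -2.36 ± 0.41 without the drug and -1.45 ± 0.29 with it.

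Of 5 homeobox genes beside Meox2, Msx1 rose in 208F by 1.85 ± 0.41, with signals of 243 and 200 in treated cells and 15 in untreated cells. In FE8 it stood at 36 and 9 with the drug and 51 without. The difference between the drug effects on Msx1, -2.28 ± 0.57, did not pass (adjusted p = 0.18). Alx1 differed the other way between the lines from Meox2, higher in FE8 by 2.39 ± 0.46 without the drug and 3.74 ± 0.33 with it. Lhx2 was lower in FE8 without the drug (-1.94 ± 0.50) and Msx1 with it (-1.74 ± 0.33). In FE8 limma called none for the drug, with 1 at an unadjusted p under 0.05, and the brightest were Prrx1 at 0.43 ± 0.33 and Alx1 at 1.22 ± 0.40.

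Markers of the other cell types known to arise from azacytidine-treated mouse fibroblasts were counted in the same way. Of 6 fat cell markers 1 rose in FE8, Fabp4 by 1.69 ± 0.39 with signals of 662 and 841 in treated cells against 188 in untreated cells, and none in 208F, where the brightest, Lep and Dgat1, were at 0.13 ± 0.31 and -0.14 ± 0.29. Fabp4 was also higher in FE8 than in 208F at each treatment (1.93 ± 0.45 without the drug and 3.50 ± 0.32 with it). In 208F its signal was 10 and 5 with the drug and 2 without. Its drug effects differed by 1.57 ± 0.55 without passing (adjusted p = 0.41). Limma called none of 3 cartilage markers for the drug in either line, with none at an unadjusted p under 0.05, and 1, Col11a1, was lower in FE8 at each treatment (-2.86 ± 0.58 without the drug and -1.86 ± 0.41 with it). Col10a1 and Col11a1, the brightest, were at 0.18 ± 0.42 and 0.28 ± 0.51 for the drug in FE8 and 0.41 ± 0.42 and -0.72 ± 0.51 in 208F. Of 6 epithelial markers, Krt8, Krt18 and Spint2 rose in both lines and Epcam in FE8, with Spint2 at 2.69 ± 0.37 in FE8 and 3.36 ± 0.37 in 208F and Epcam at 2.15 ± 0.44 in FE8. Under the drug Epcam was higher in FE8 than in 208F (1.31 ± 0.36). The keratins count here as well as among the filaments, and the summed signal of the 6 was 5331 and 5532 in treated FE8, 381 in untreated FE8, 4522 and 3880 in treated 208F and 406 in untreated 208F. Of 4 neuronal markers none passed (limma, 2 in FE8 and 1 in 208F at an unadjusted p under 0.05), and the brightest, Map2 and Uchl1, were at -0.98 ± 0.38 and 1.41 ± 0.40 in FE8 and 0.18 ± 0.38 and 0.93 ± 0.40 in 208F. The part of such cells in the Myod1 and Des values was not tested. The plot of lists shows which genes were called, with none among the carbonic anhydrases, the ubiquitous actin and myosin genes, the cartilage markers and the neuronal markers.

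**Figure D4:**
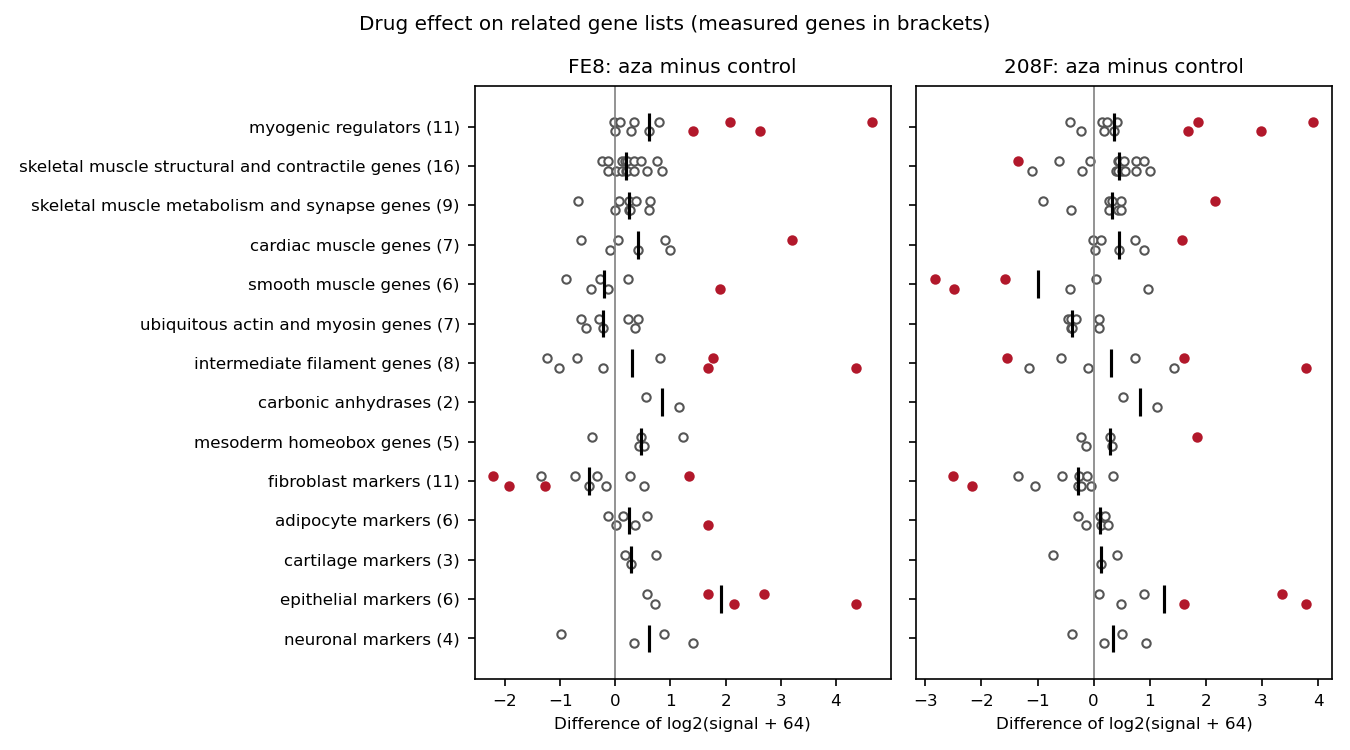
Drug effect on each measured gene of 14 related lists, as differences of log2(signal + 64), in FE8 (left) and 208F (right), with filled points for genes called at an adjusted p under 0.05 and a vertical bar at the list's median. The number of measured genes stands in brackets, and the 16 structural genes of skeletal muscle hold 1 filled point, on the lower side in 208F.

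The genes with the most similar course over the 6 arrays were found by the root mean square difference between log2 profiles, each centred on its own mean, among 3950 probe sets of other genes. With 6 arrays that share groups, this ranking is a description. For Myod1 they were Rhob, a small GTPase, at 0.44, Fst, which encodes the activin and myostatin antagonist follistatin, at 0.47, and Ankrd1, an ankyrin repeat protein of muscle, at 0.49. Fst stood at 628 and 392 in treated FE8 and 36 in untreated FE8, and at 1783 and 1912 in treated 208F and 225 in untreated 208F.

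For Des they were Ptgr1, a prostaglandin reductase, at 0.31, Id2 at 0.42 and Ckb, brain creatine kinase, at 0.54. Ptgr1 showed the gap between 208F duplicates that Des had, with 605 and 1339. For Acta1 they were Fzd1, Oplah and Lgr4, at 0.15 to 0.19, which are small values because Acta1 itself varied little. For Myl6b they were the tubulin Tubb5 at 0.32, the helicase subunit Mcm7 at 0.35 and the splicing regulator Ptbp1 at 0.35.

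For Car3 they were Col1a1 at 0.33, the growth factor Tgfb3 at 0.44 and the actin-binding Tagln at 0.44, all low in FE8. For Meox2 they were Fstl1 at 0.34, the collagen Col3a1 at 0.35 and Sparc at 0.41, the last by a probe set that fell with the drug in FE8 (-1.54) where the brightest Sparc probe set rose. Among the members themselves the closest pair was Myod1 and Acta1 at 0.79, followed by Myod1 and Des at 0.88, and the farthest was Des and Car3 at 2.35.

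**Figure D5:**
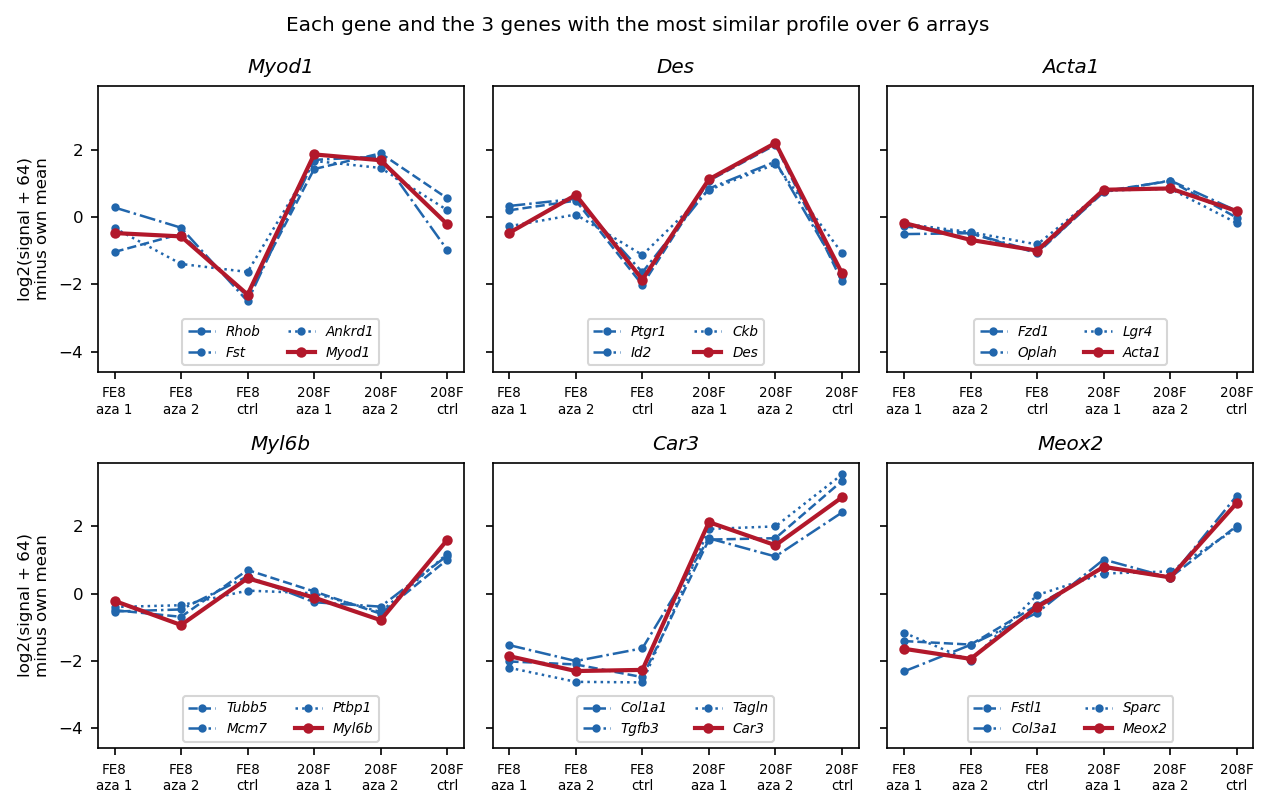
Profiles of log2(signal + 64) minus each gene's own mean on the 6 arrays for each member (solid red) and the 3 genes of most similar profile (broken blue). The neighbours of Des share its higher replicate 2 in 208F, and those of Car3 share its low level in FE8.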

How the data were processed

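Gene expression was measured in 6 samples of rat fibroblasts on Affymetrix rat genome arrays. Per the submitters' processing notes the deposited signal intensities were made with MAS5, with no version or settings given; they are whole numbers on a linear scale with like column means, and no further scaling was applied. The table held 4847 probe sets, of which 29 controls were left out and 4818 tested. These are fewer than the full array holds, and the filter behind this was not stated. Shares of all probe sets refer to those tested. Probe sets were named from the platform annotation (3956 with 1 gene, 207 with several, 655 with none, 3950 matched by identifier to GRCr8). Values were taken as log2(signal + 64) and fitted with 4 group means in limma 3.58.1 (R 4.3.3, lmFit, eBayes with trend, 2 residual and 9.02 prior degrees of freedom, 2-sided). Untreated groups of 1 array were assumed to vary like the duplicates. With 6 arrays, precision is low. Lists used the brightest probe set of each gene, without the members. For each member, the 3 genes of most similar profile were named. From each list and comparison, up to 4 called genes per direction were named, or 2 of the brightest where none was called. Thy1, Tcf3, Tcf12, Myh3, Tnnc2 and Neb fall outside this rule and were chosen after their values were seen. The drug effects given for Vim and Myl6, and the signals given for S100a4, also fall outside this rule. The members and lists were chosen with earlier results of these data known. Alternatives were 2 other pseudocounts, quantile normalization, a filter at a mean signal of 200, no variance trend, a replicate block and leaving out each treated array.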

Additional observations from a re-analysis of the deposited data

How the results depend on the processing

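The number of members called held within 1.5 times under quantile normalization, a filter at a mean signal of 200, no variance trend and a pseudocount of 16, in all 5 comparisons. For the drug effect in FE8 (2 called) it was 0 with a pseudocount 4 times as large as 64 and 4 with a replicate block, which added Des (adjusted p = 0.0173) and Myl6b (0.0427). The replicate numbers are shared only as numbers, the differences between duplicates correlating at 0.319 between the lines over 2 pairs, and the block left the other 4 counts the same, though in the line comparison under the drug it called Des (adjusted p = 0.0149) and not Acta1 (0.0548). Leaving out 1 treated array at a time gave 2 to 5 called for the drug in 208F, 0 to 4 for the drug in FE8, 2 to 4 for the lines without the drug, 3 to 4 with it and 0 to 2 for the difference between drug effects. The FE8 count was 0 without either FE8 replicate and 4 without either 208F replicate. The upper end of 2 for the difference between effects came without 208F replicate 1. In the fits without either 208F replicate the prior degrees of freedom were infinite, so the added calls rest on an error pooled over probe sets and not on each gene's own duplicates.

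Signs turned for values that were not called. The drug effect on Car3 in FE8 was -0.08 after quantile normalization and -0.03 to 0.41 with an array left out. The line difference of Myl6b under the drug ran from -0.48 to 0.24. The difference between drug effects was 0.76 for Myod1 and 0.39 for Acta1 with a pseudocount of 16, and ran from -0.34 to 0.17 for Acta1 with an array left out. The cause was not tested. The share of all probe sets called ranged over the settings from 1.58% to 16.3% for the drug in FE8, 1.56% to 13.8% for the drug in 208F, 2.26% to 11.2% and 1.99% to 11% for the lines without and with the drug, and 0% to 4.28% for the difference between effects. The filter left out Acta1. The median drug effect in 208F over all probe sets was 0.11, and -0.03 after quantile normalization. Dim signals of Myod1, Des, Acta1 and Meox2 limit their differences. The drug effects and line differences of these genes were smaller with the larger pseudocount. The difference between their drug effects was farther from 0 for Meox2, at 1.10 against 0.66, and for Myod1, at -0.76 against -0.21. It was also farther from 0 for Acta1, at -0.15 against -0.08, and nearer for Des, at -1.07 against -1.38.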
